A study of Homo sapiens with 6 samples.

Results

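A set of 10 genes that are widely used as readouts of Wnt/beta-catenin signalling was followed in HT-29 cells after knockdown (KD) of the long noncoding RNAs HOXA-AS3 and HOXB-AS3. They are AXIN2, LGR5, ASCL2, MYC, NKD1, LEF1, TCF7, RNF43, ZNRF3 and SP5, and they were taken by symbol from the gene tables, 10 of 27434 rows, each symbol matching 1 row. HT-29 is a human colorectal cancer line that carries mutant APC. The cells were transfected with a pool of non-targeting siRNAs (siNT), a pool against HOXA-AS3 (siHOXA-AS3) or a pool against HOXB-AS3 (siHOXB-AS3), each at 10 nM, and were collected 48 h later for mRNA-seq. Each of the 3 groups had 2 libraries. All of the groups were transfected, and all came from this single cell line, so untransfected cells and other lines are outside these comparisons.

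In the Wnt pathway, a secreted ligand binds Frizzled and LRP receptors, and this stops a cytoplasmic destruction complex of APC, AXIN, GSK3 and CK1 from marking beta-catenin for degradation. Beta-catenin then enters the nucleus and acts with DNA-binding factors of the TCF/LEF family on target genes. In the colon the pathway maintains the stem cells of the crypt, and loss of APC function, the usual early event of colorectal cancer, leaves it active without ligand. Several of its targets feed back on it: AXIN2 is a scaffold of the destruction complex, RNF43 and ZNRF3 remove Frizzled from the cell surface, and NKD1 acts on Dishevelled.

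TCF/LEF factors recognise short DNA elements, and the promoters of 2 of these genes carry such elements close to the start site. The RefSeq promoter table (GRCh38.p14) held 6 windows for 4 of the 10 genes, namely SP5, LEF1, TCF7 and RNF43. The 250 bases before each start were searched on both strands for the letters CTTTG followed by A or T at each of the next 2 positions, which begin the TCF/LEF element. SP5 held 3 matches and 1 of the TCF7 windows held 1, while the other 4 windows held none. Of 34941 windows of this length for all genes, 4188 (12%) held at least 1. The windows with matches are shown on the gene strand because these genes are followed below, and the capitals mark the matched letters.
SP5, chr2:170715087-170715336, + strand: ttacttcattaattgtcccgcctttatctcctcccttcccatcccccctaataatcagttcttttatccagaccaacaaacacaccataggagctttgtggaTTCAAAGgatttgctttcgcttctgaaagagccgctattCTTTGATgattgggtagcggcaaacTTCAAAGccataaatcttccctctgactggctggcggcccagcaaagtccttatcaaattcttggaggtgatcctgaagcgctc
TCF7, chr5:134123368-134123617, + strand: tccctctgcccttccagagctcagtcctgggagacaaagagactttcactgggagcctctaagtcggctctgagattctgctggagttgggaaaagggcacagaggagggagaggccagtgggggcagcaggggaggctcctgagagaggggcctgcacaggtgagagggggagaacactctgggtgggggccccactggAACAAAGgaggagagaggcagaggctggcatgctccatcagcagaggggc
In SP5 the matches began at -148, -109 and -84 relative to the start site. The TCF7 window lies before an alternative start inside the gene, and its match began at -50. A match is a description of the letters in these windows, and binding was not measured here.

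The libraries held 15998518 to 26263938 expected counts. The siRNA target was checked first. HOXB-AS3 was at 27.04 and 29.28 FPKM (fragments per kilobase of transcript, scaled for library size) in siNT, at 25.59 and 27.77 in siHOXA-AS3 and at 6.05 and 7.96 in siHOXB-AS3, so only the libraries of its own KD were low. HOXA-AS3 was scarce, at 0.38 and 0.30 FPKM in siNT, 0.13 and 0.19 in siHOXA-AS3 and 0.32 and 0.26 in siHOXB-AS3, and it too was lowest where it was targeted. Against siNT the log2 fold change of the target was -1.96 for HOXB-AS3 (SE 0.25, edgeR adjusted p = 0.0678) and -1.09 for HOXA-AS3 (SE 0.40, adjusted p = 0.711). The 2 siHOXA-AS3 libraries stood apart from each other. Across 13034 genes their log2 values differed with an SD of 0.73, where the siNT pair had 0.42 and the siHOXB-AS3 pair 0.37. Across genes the siHOXA-AS3 difference went with transcript GC content (r = -0.756 over 12622 genes). The difference of the siNT pair did so less strongly and with the other sign (r = 0.427), and r was -0.149 for the siHOXB-AS3 pair. Because all groups share 1 estimate of spread, results are also given below without the siHOXA-AS3 libraries or with the GC trend removed. At least 1 FPKM on average was seen for 7 of 8 colon epithelium markers in each group, the exception being the intestinal factor CDX2 (0.10 to 0.34 FPKM over the libraries). Of 8 markers of mesenchymal, immune and endothelial cells, 7 lay between 0 and 0.17 FPKM, and CD68 lay between 9.74 and 15.69. In bulk libraries, fewer cells expressing a gene and less RNA per cell cannot be told apart.

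MYC was by far the most abundant of the 10 genes, and 5 of them were above 1 FPKM. In siNT the mean FPKM was 101.1 ± 4.98 (SD, n = 2) for MYC, 18.1 ± 1.27 for TCF7, 12.9 ± 0.856 for RNF43, 5.35 ± 0.127 for ZNRF3 and 3.35 ± 0.545 for AXIN2. Among the 13034 genes tested the MYC mean stood above that of 94.0% of genes, TCF7 above 71.8%, RNF43 above 64.4%, ZNRF3 above 43.1% and AXIN2 above 33.0%. LGR5 (0.475 ± 0.0354) and SP5 (0.460 ± 0.0283) overlapped in siNT, and the FPKM values of all other neighbours in the order did not overlap in that group. SP5 and ASCL2 came as close as 0.44 and 0.40 FPKM, on 13 and 11 counts in siNT replicate 2. The siNT counts of NKD1 (8 and 1) and LEF1 (0) were too low to order these 2 genes. ASCL2 was at 0.320 ± 0.113 and NKD1 at 0.025 ± 0.0212, while LEF1 had no count in any of the 6 libraries. In siHOXA-AS3 the libraries of TCF7 and RNF43 also overlapped. Of 10 genes, 7 passed the count filter used for testing, and ASCL2, NKD1 and LEF1 did not.

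**Figure D1:**
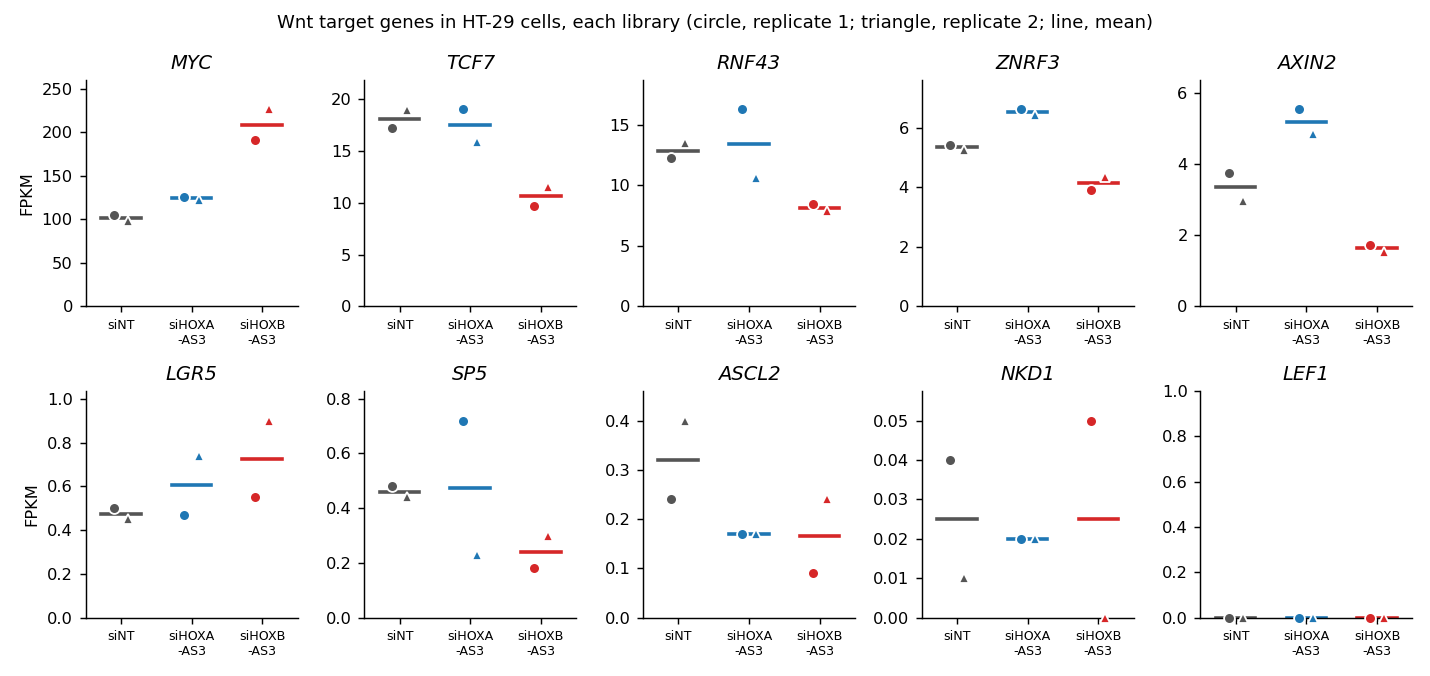
FPKM of the 10 Wnt target genes (each y axis starts at 0 and has its own scale) in the 6 libraries; circles are replicate 1, triangles replicate 2 and lines the mean of 2. The siHOXB-AS3 libraries lie below both siNT libraries for TCF7, RNF43, ZNRF3, AXIN2 and SP5 and above both for MYC and LGR5, and LEF1 is at 0 throughout.

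AXIN2, the feedback scaffold that is often read as the most direct output of beta-catenin, lay on opposite sides of siNT in the 2 KDs, and the KDs differed from each other. It was at 3.73 and 2.96 FPKM in siNT, at 5.53 and 4.83 in siHOXA-AS3 and at 1.73 and 1.53 in siHOXB-AS3. No library of one group overlapped another group, with siHOXA-AS3 high, siNT between and siHOXB-AS3 low. Against siHOXA-AS3, AXIN2 fell in siHOXB-AS3 by 1.63 on the log2 scale (SE 0.23, a fold of 0.323, edgeR adjusted p = 0.0326). Against siNT the log2 fold change was -0.99 (SE 0.23, adjusted p = 0.153) in siHOXB-AS3 and 0.64 (SE 0.22, adjusted p = 0.675) in siHOXA-AS3, and neither passed the threshold of 0.05 in the fit of 6 libraries.

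Whether AXIN2 passed depended on the method and on the libraries in the fit. With all 6 libraries, AXIN2 in siHOXB-AS3 against siNT passed with DESeq2 (adjusted p = 0.0327) and with the GC trend removed (0.0108). It also passed with the GC trend removed and a replicate block added (0.0224). It did not pass with limma (0.158) or with the replicate block alone (0.312). For siHOXB-AS3 against siNT the adjusted p was 0.000425 with only those 4 libraries in the fit and 0.000198 or 0.00017 without siHOXA-AS3 replicate 1 or 2, and it was 0.756 to 1.0 without 1 of the siNT or siHOXB-AS3 libraries. For siHOXB-AS3 against siHOXA-AS3 the call was lost with only those 4 libraries (0.117), without siNT replicate 1 or 2 (0.114 and 0.11), without siHOXB-AS3 replicate 1 or 2 (0.385 and 0.505) and with the replicate block described in the closing section (0.0889). For siHOXA-AS3 against siNT it was 0.0449 and 0.0106 without siHOXA-AS3 replicate 1 or 2, and in all 15 alternatives together it ran from 0.0106 to 1.0. The log2 fold change itself kept its sign under every alternative, from -1.14 to -0.82 for siHOXB-AS3 against siNT and from 0.49 to 0.82 for siHOXA-AS3 against siNT.

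RNF43 and ZNRF3, the paired ubiquitin ligases that clear Frizzled from the membrane, were lower in siHOXB-AS3 in every library. RNF43 was at 12.27 and 13.48 FPKM in siNT, at 16.30 and 10.59 in siHOXA-AS3 and at 8.44 and 7.88 in siHOXB-AS3. The siHOXA-AS3 libraries lay on either side of siNT and the siHOXB-AS3 libraries below all others. The log2 fold change of RNF43 in siHOXB-AS3 was -0.60 (SE 0.23, adjusted p = 0.349) against siNT and -0.67 (SE 0.23, adjusted p = 0.192) against siHOXA-AS3. ZNRF3 was at 5.44 and 5.26 FPKM in siNT, at 6.63 and 6.45 in siHOXA-AS3 and at 3.91 and 4.36 in siHOXB-AS3. Its 3 groups did not overlap and took the same order as those of AXIN2. The log2 fold change of ZNRF3 was -0.31 (SE 0.18, adjusted p = 0.557) in siHOXB-AS3 and 0.31 (SE 0.18, adjusted p = 0.905) in siHOXA-AS3 against siNT, and -0.62 (SE 0.18, adjusted p = 0.130) between the KDs. The ratio of RNF43 to ZNRF3 in FPKM was 2.26 and 2.56 in siNT, 2.46 and 1.64 in siHOXA-AS3 and 2.16 and 1.81 in siHOXB-AS3, so both genes were present throughout with RNF43 the more abundant. With only siHOXB-AS3 and siNT in the fit, RNF43 was lower with an adjusted p of 0.000515 and ZNRF3 missed the threshold at 0.0785. In that fit 23.3% of all genes passed. RNF43 also passed with the GC trend removed (0.0283), but not with DESeq2 (0.288), limma (0.35) or the replicate block (0.516).

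NKD1, the third feedback gene, was barely detected. Its expected counts were 8, 1, 4.07, 3, 9.71 and 0 in siNT 1 and 2, siHOXA-AS3 1 and 2 and siHOXB-AS3 1 and 2. The groups overlapped, and no difference was detectable at this depth. A count of 3 would correspond to 0.0133 to 0.0218 FPKM in these libraries, counting error only.

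TCF7 (also called TCF-1), a DNA-binding partner of beta-catenin and a target of the pathway, was lower in siHOXB-AS3 as well. It was at 17.19 and 18.99 FPKM in siNT, at 19.02 and 15.91 in siHOXA-AS3 and at 9.72 and 11.55 in siHOXB-AS3. The siNT and siHOXA-AS3 libraries overlapped, and both siHOXB-AS3 libraries were below them. Against siNT the log2 fold change was -0.72 (SE 0.21, adjusted p = 0.222) in siHOXB-AS3 and -0.06 (SE 0.20, adjusted p = 0.997) in siHOXA-AS3. Between the KDs it was -0.66 (SE 0.21, adjusted p = 0.158). With only siHOXB-AS3 and siNT in the fit the TCF7 difference passed the threshold (adjusted p = 0.000347), as did 23.3% of all genes. It also passed with the GC trend removed (0.0161). It did not pass with DESeq2 (0.105), limma (0.186) or the replicate block (0.428). Without 1 of the siNT or siHOXB-AS3 libraries the log2 fold change ran from -0.854 to -0.595.

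LEF1, the family member most closely related to TCF7, had a count of 0 in all 6 libraries, which allows up to 0.0358 to 0.0587 FPKM per library (3 counts, counting error only). The family in these cells therefore consisted of TCF7L2, which made up 60.6% to 72.6% of the summed FPKM of the 4 genes, and TCF7, which made up the rest but for at most 0.794% from TCF7L1. The TCF7 share was 32.1% and 39.2% in siNT, 36.9% and 30.6% in siHOXA-AS3 and 26.6% and 29.9% in siHOXB-AS3. The siHOXB-AS3 shares were the lowest, by a margin smaller than the gap between the siNT libraries. The summed FPKM of the family was 53.6 and 48.5 in siNT, 51.5 and 52.0 in siHOXA-AS3 and 36.5 and 38.7 in siHOXB-AS3. For such single values 2 libraries against 2 cannot give an exact two-sided permutation p below 0.333.

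**Figure D2:**
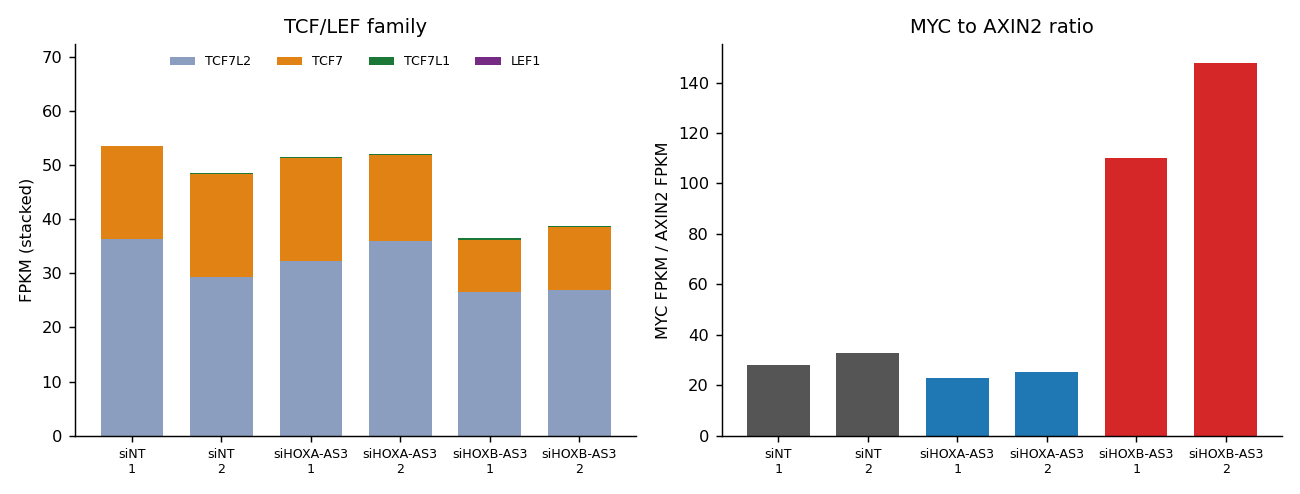
Left, stacked FPKM of TCF7L2, TCF7, TCF7L1 and LEF1 in each library; right, the ratio of MYC to AXIN2 FPKM in each library, with numbers 1 and 2 giving the replicate. The family sum is 36.5 and 38.7 in siHOXB-AS3 and at least 48.5 in the other 4 libraries, and the ratio is 110.2 and 147.9 in siHOXB-AS3 and at most 32.96 elsewhere.

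MYC, the growth regulator whose activation by beta-catenin is a classic step of colon tumorigenesis, lay on the other side of siNT from AXIN2, TCF7 and RNF43 in siHOXB-AS3. It was at 104.60 and 97.56 FPKM in siNT, at 125.69 and 122.31 in siHOXA-AS3 and at 190.68 and 226.34 in siHOXB-AS3. No group overlapped another, and siHOXB-AS3 was highest. The log2 fold change of MYC in siHOXB-AS3 was 1.09 against siNT (SE 0.15, a fold of 2.13, adjusted p = 0.0774) and 0.79 against siHOXA-AS3 (SE 0.15, adjusted p = 0.0597), with 0.30 (SE 0.15, adjusted p = 0.871) for siHOXA-AS3 against siNT. For siHOXB-AS3 against siNT the adjusted p of MYC was 8.01e-08 with only those 4 libraries, a fit in which 23.3% of all genes passed. It was 0.000102 with DESeq2 and 0.0024 with the GC trend removed. MYC did not pass with limma (0.113) or the replicate block (0.209). Without 1 of the siNT or siHOXB-AS3 libraries its log2 fold change ran from 0.961 to 1.217. MYC made up 69.9% to 75.9% of the summed FPKM of the 10 genes in siNT and siHOXA-AS3 and 88.5% and 89.4% in siHOXB-AS3. The ratio of MYC to AXIN2 was 28.04 and 32.96 in siNT, 22.7 and 25.3 in siHOXA-AS3 and 110.2 and 147.9 in siHOXB-AS3.

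The stem cell genes LGR5 and ASCL2 were scarce, at 0.90 FPKM or less in every library. LGR5, the R-spondin receptor that marks crypt stem cells, was at 0.50 and 0.45 FPKM in siNT, at 0.47 and 0.74 in siHOXA-AS3 and at 0.55 and 0.90 in siHOXB-AS3, on 32 to 88 counts. Its siHOXB-AS3 libraries were above both siNT libraries, though the lower of them was close to siNT. The log2 fold change of LGR5 was 0.67 (SE 0.37, adjusted p = 0.552) in siHOXB-AS3 and 0.36 (SE 0.38, adjusted p = 0.993) in siHOXA-AS3 against siNT, and it stood at 0.26 for siHOXB-AS3 against siNT without siHOXB-AS3 replicate 2. ASCL2, a transcription factor of the same stem cells, had 11 counts in each siNT library, 7 and 5 in siHOXA-AS3 and 4 and 9 in siHOXB-AS3 (0.24 and 0.40, 0.17 and 0.17, and 0.09 and 0.24 FPKM). The siNT and siHOXB-AS3 ranges met at 0.24 FPKM, and the gene was under the filter and not tested.

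SP5, the zinc finger transcription factor whose promoter is shown above, was at 0.48 and 0.44 FPKM in siNT, at 0.72 and 0.23 in siHOXA-AS3 and at 0.18 and 0.30 in siHOXB-AS3. One siHOXA-AS3 library was the highest of all 6 and the other lay between the siHOXB-AS3 libraries, on 31 and 7 counts. The log2 fold change of SP5 in siHOXB-AS3 against siNT was -0.91 (SE 0.63, adjusted p = 0.628). Against siHOXA-AS3 it was -0.9997 (SE 0.62, adjusted p = 0.453), and it was 0.11 without siHOXA-AS3 replicate 1. Counts of 7 to 31 limited what could be seen for this gene.

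**Figure D3:**
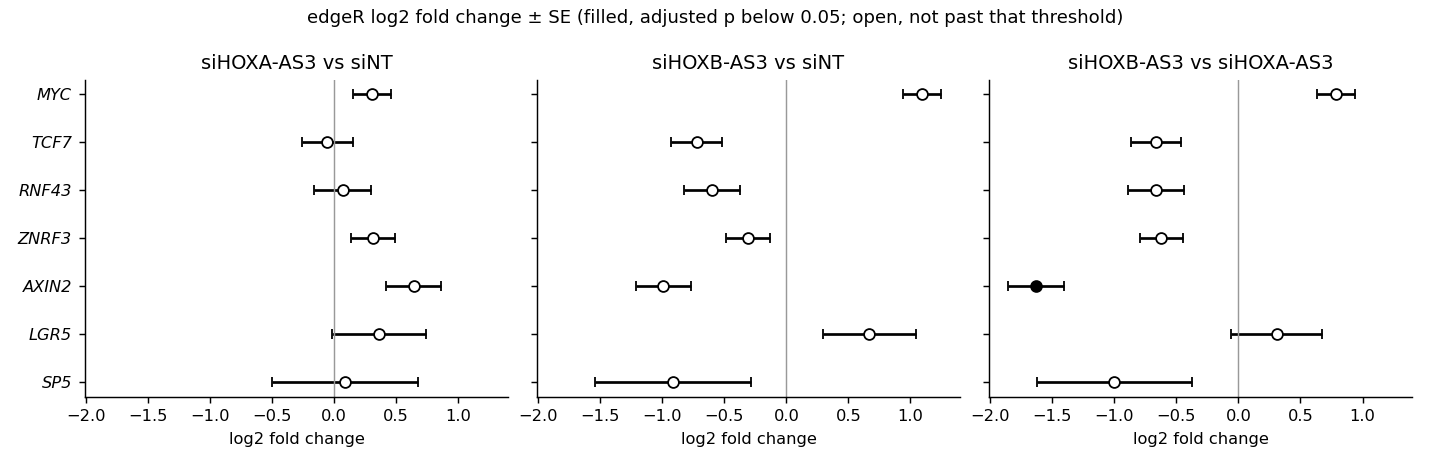
Log2 fold change (x axis) with its SE for the 7 Wnt target genes that were tested, in the 3 comparisons; filled points have an adjusted p below 0.05 in the edgeR fit of 6 libraries. The one filled point is AXIN2 in siHOXB-AS3 against siHOXA-AS3, at -1.63, and MYC lies on the other side of 0 from AXIN2, TCF7, RNF43, ZNRF3 and SP5 in both comparisons of siHOXB-AS3.

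Counted together, the genes showed the following. For siHOXA-AS3 against siNT, 0 of 7 passed an adjusted p of 0.05, as did 0 (0%) of all 13034 genes, and 1 (AXIN2) had an unadjusted p below 0.05, against 6.16% of all genes. In that comparison 3 genes (AXIN2, MYC and ZNRF3) had both KD libraries above both siNT libraries and 0 had both below, against 12.5% and 16.1% of all genes. The median log2 fold change was 0.30, against 0.01 over all genes. With only those groups in the fit 0 of the 7 and 0% of all genes passed. DESeq2 called 0 of the 7 and 0.391% of all genes, and edgeR with the GC trend removed called 0 of the 7 and 3.9% of all genes.

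For siHOXB-AS3 against siNT, 0 of 7 passed the adjusted threshold, against 0.0614% of all genes (8 of 13034). The unadjusted p was below 0.05 for 4 (MYC higher, and AXIN2, TCF7 and RNF43 lower), against 12.2% of all genes. No gene had overlapping groups, with 2 (MYC and LGR5) higher and 5 lower, beside 30.9% of all genes higher and 30.9% lower. The median was -0.60 beside -0.01 for all genes. DESeq2 called 2 of the 7 (AXIN2 and MYC) and 2.71% of all genes. The fit of those 4 libraries alone called 4 (AXIN2, MYC, TCF7 and RNF43) beside 23.3% of all genes, and the fit with the GC trend removed called the same 4 beside 14.2%.

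For siHOXB-AS3 against siHOXA-AS3, 1 of 7 (AXIN2) passed, against 1.57% of all genes (204 of 13034). Unadjusted p-values below 0.05 were found for 5 genes (MYC higher, and AXIN2, TCF7, RNF43 and ZNRF3 lower), against 18.4% of all genes. The libraries did not overlap for 1 higher and 4 lower genes, beside 22.8% and 22.5% of all genes, and the median was -0.66 beside -0.01. DESeq2 called 2 (AXIN2 and MYC) beside 6.14% of all genes. The fit with the GC trend removed called 5 (with TCF7, RNF43 and ZNRF3) beside 26.7%, and the fit of those 4 libraries alone called 0 beside 0.0156%. The 2 comparisons with siNT share its libraries, so their values are not independent of each other. Where the text sets the 2 KDs beside each other relative to siNT, it is a description and not a test.

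**Figure D4:**
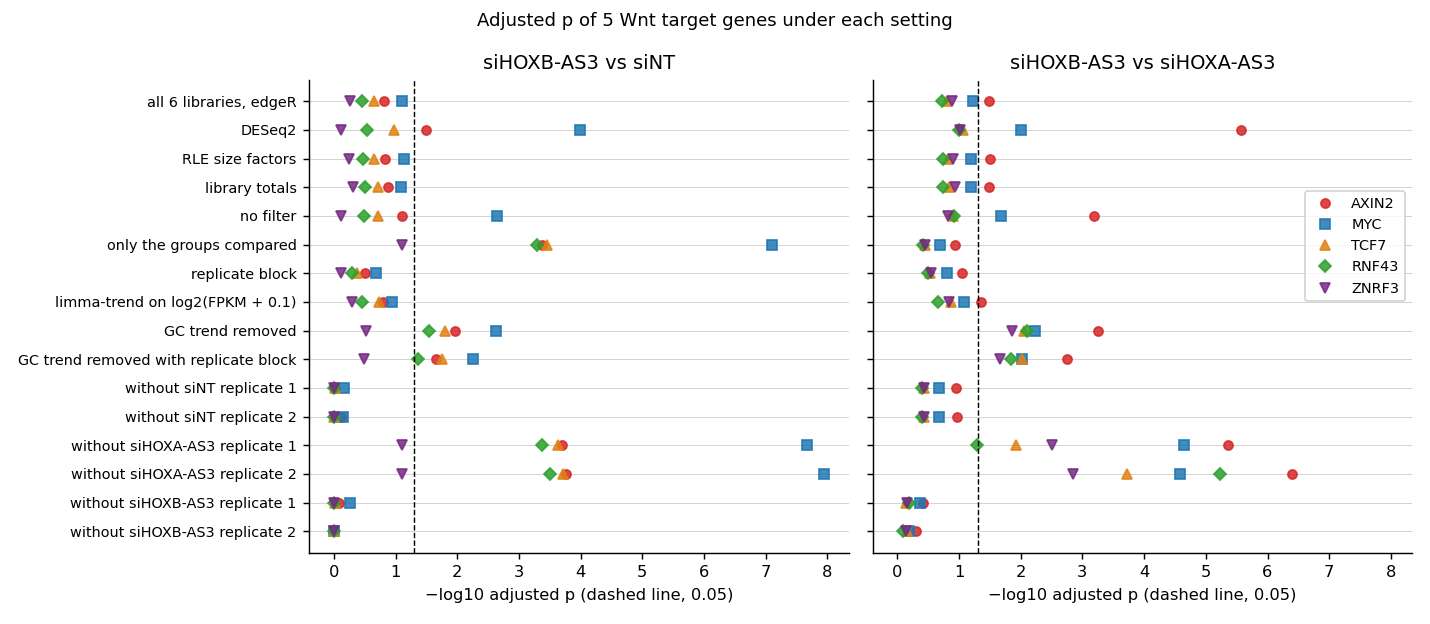
Adjusted p (x axis, as -log10, with 0.05 as the dashed line) of AXIN2, MYC, TCF7, RNF43 and ZNRF3 for siHOXB-AS3 against siNT (left) and against siHOXA-AS3 (right), with the fit of 6 libraries on the top line and 15 alternatives under it. Points to the right of the line pass; leaving out a siHOXA-AS3 library moves them right and leaving out a siNT or siHOXB-AS3 library moves them left of the line.

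Other target genes of the pathway were mostly at lower levels in siHOXB-AS3. Of 22 such genes 15 were tested, and against siNT 12 had a negative and 3 a positive log2 fold change, with a median of -0.52, where 50.7% of all genes were negative with a median of -0.01. The unadjusted p was below 0.05 for 8 lower and 2 higher, beside 12.2% of all genes. In the fit of 6 libraries 0 passed the adjusted threshold (0.0614% of all genes), and in the fit of those 4 libraries 10 did (23.3% of all genes). DESeq2 called 3 (2.71% of all genes), and the fit with the GC trend removed called 9 (14.2%). CEMIP, a hyaluronan-binding protein, had the lowest p of the list, with a log2 fold change of -1.47 (SE 0.22, adjusted p = 0.0946). The adjusted p of CEMIP was 1.48e-05 with DESeq2 and 0.000488 with the GC trend removed. DKK1, a secreted inhibitor of the pathway that is itself a target, had positive log2 fold changes in both KDs, of 1.48 (adjusted p = 0.101) in siHOXB-AS3 and 1.27 (adjusted p = 0.465) in siHOXA-AS3. With DESeq2 the adjusted p of DKK1 was 6.8e-06 in siHOXB-AS3 and 0.000986 in siHOXA-AS3. With the GC trend removed it was 0.001175 and 0.00699, so DKK1 passed in both KDs, higher, in those fits. The matrix protease MMP7 and the adhesion receptor CD44 were the most abundant of the list, at mean levels of 105.6 and 82.6 FPKM, and had log2 fold changes of 0.50 (adjusted p = 0.494) and -0.39 (adjusted p = 0.310) in siHOXB-AS3. Against siHOXA-AS3, 1 of 15 passed, beside 1.57% of all genes: CEMIP fell by 1.43 on the log2 scale (adjusted p = 0.0391), and the median was -0.44. DESeq2 called 5 (6.14% of all genes) and the fit with the GC trend removed 10 (26.7%). The fit of the 4 KD libraries called 0 (0.0156%). The CEMIP call was lost with only those 4 libraries in the fit (0.137), with the replicate block (0.107), with limma (0.0527), without siNT replicate 1 or 2 (0.139 and 0.130) and without siHOXB-AS3 replicate 1 or 2 (0.431 and 0.505). In siHOXA-AS3 against siNT, 6 were positive and 9 negative, 0 passed (0% of all genes), and the median was -0.04. There DESeq2 called 1, which was DKK1 (0.391% of all genes), and the fit with the GC trend removed called 3 (3.9%).

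Upstream of the target genes, 43 genes of the ligand, receptor, destruction complex and nuclear lists were tested. In the edgeR fit of 6 libraries 0 passed the adjusted threshold in any of the 3 comparisons. Of all genes 0% passed for siHOXA-AS3 against siNT, 0.0614% for siHOXB-AS3 against siNT and 1.57% between the KDs. In the same order, 5, 7 and 8 of the 43 had an unadjusted p below 0.05, beside 6.16%, 12.2% and 18.4% of all genes. For siHOXB-AS3 against siNT 12 passed in the fit of those 4 libraries (23.3% of all genes), 4 with the GC trend removed (14.2%) and 1 with DESeq2 (2.71%). For siHOXB-AS3 against siHOXA-AS3 those fits called 0 (0.0156%), 10 (26.7%) and 3 (6.14%), and for siHOXA-AS3 against siNT they called 0 (0%), 2 (3.9%) and 0 (0.391%). Of 21 ligand genes, including the ligand-processing genes PORCN and WLS, 6 were tested, and the Wnt transporter WLS led them at 41.1 FPKM. WNT10A (2.97 FPKM) and WNT7B (2.57 FPKM) were the most abundant ligands, and WNT7B had the lowest p in siHOXB-AS3 against siNT (log2 fold change -1.09, adjusted p = 0.151, and 0.027 with DESeq2). WNT3 had the lowest p in siHOXA-AS3 (log2 fold change 2.94, adjusted p = 0.465), at levels between 0.02 and 0.24 FPKM. The list's medians were 0.30 in siHOXA-AS3 and -0.23 in siHOXB-AS3 against siNT.

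Of 21 receptor and R-spondin genes, 12 were tested. FZD6 (24.8 FPKM), LGR4 (22.1 FPKM) and the co-receptor LRP5 (21.2 FPKM) were the most abundant, so the LGR family was represented by LGR4 far more than by LGR5. The lowest p was that of ROR1, a receptor of non-canonical Wnt signalling, in siHOXA-AS3 (log2 fold change -0.56, adjusted p = 0.641) and of FZD4 in siHOXB-AS3 (-1.49, adjusted p = 0.307). The medians were 0.04 and -0.02. None of the 7 genes on the list of secreted inhibitors was abundant enough to test, the highest value being 0.18 FPKM for FRZB. The secreted inhibitor DKK1, listed above with the target genes, was tested and stood at 26.52 to 84.88 FPKM over the 6 libraries.

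Of 14 genes of the destruction complex and its regulators, 13 were tested, with medians of 0.15 in siHOXA-AS3 and -0.15 in siHOXB-AS3 against siNT. CSNK1A1 (89.8 FPKM) and GSK3A (70.8 FPKM), its kinases, and FBXW11 (34.6 FPKM), an F-box protein that recognises marked beta-catenin, were the most abundant. FBXW11 also had the lowest p in siHOXA-AS3 (log2 fold change 0.19, adjusted p = 0.973). DVL3, a Dishevelled protein that relays the receptor signal, had the lowest p in siHOXB-AS3 (-0.62, adjusted p = 0.197). Of 14 genes of the nuclear complex 12 were tested, with medians of 0.04 and -0.18. CTNNB1, which encodes beta-catenin, was at 27.79 to 34.27 FPKM over the 6 libraries, with log2 fold changes of 0.03 (adjusted p = 0.999) in siHOXA-AS3 and 0.25 (adjusted p = 0.587) in siHOXB-AS3. TCF7L2 (31.3 FPKM) had values of 0.07 (adjusted p = 0.997) and -0.25 (adjusted p = 0.636). TLE5, a member of the TLE family, was the most abundant at 42.3 FPKM and had the lowest p in siHOXA-AS3 (-0.57, adjusted p = 0.800). TLE4 had the lowest in siHOXB-AS3 (-0.69, adjusted p = 0.387).

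**Figure D5:**
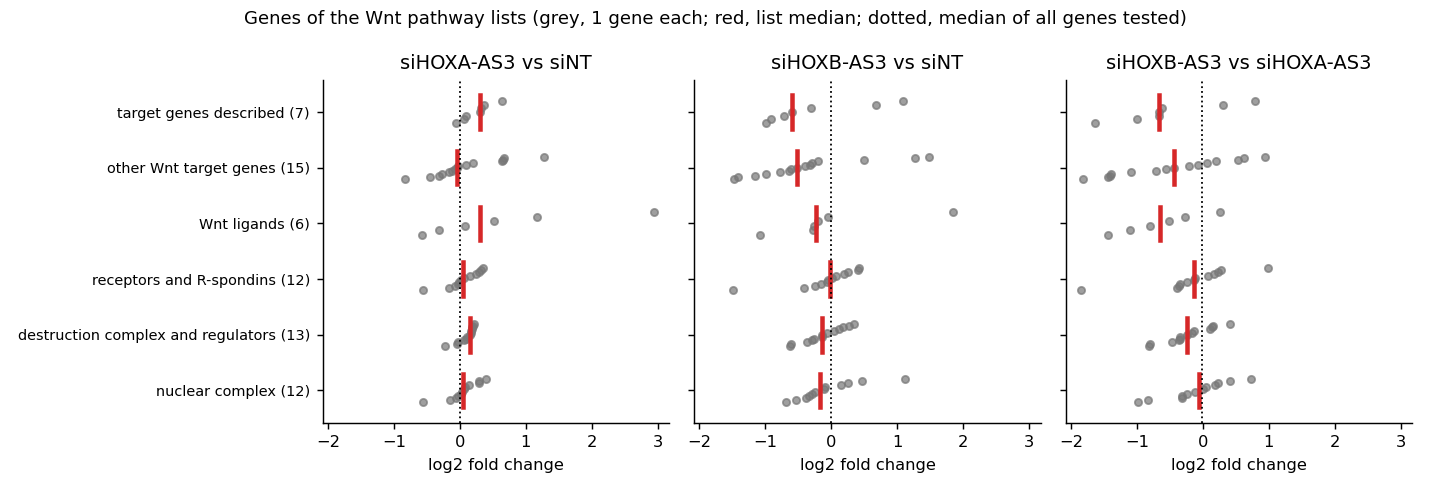
Log2 fold change (x axis) of every tested gene of the Wnt lists in the 3 comparisons, with the number tested in brackets; grey points are genes, red lines list medians and the dotted line the median of all genes tested. In siHOXB-AS3 against siNT the medians are -0.60 for the 7 target genes described and -0.52 for the 15 others, and -0.23 to -0.02 for the upstream lists.

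Epithelial genes were followed beside these. EPCAM, an adhesion protein of epithelial cells, fell in siHOXB-AS3 against siHOXA-AS3 by 0.82 on the log2 scale (adjusted p = 0.0471). Against siNT its log2 fold change was -0.81 (adjusted p = 0.101), with an adjusted p of 0.01004 with DESeq2 and 0.00164 with the GC trend removed. The most abundant markers were KRT18, LGALS4 and KRT8 (means of 2196, 1171 and 425.5 FPKM). In siHOXB-AS3 their log2 fold changes were 0.14, -0.48 and 0.20 against siNT, and 0.22, -0.71 and 0.32 against siHOXA-AS3. None of these passed in the fit of 6 libraries. Of the 8 markers, 6 were negative and 2 positive against siNT, and 5 negative and 3 positive against siHOXA-AS3. The median of the 8 epithelium markers was -0.31 in both comparisons of siHOXB-AS3 and 0.09 in siHOXA-AS3 against siNT. Against siNT 0 of 8 passed in siHOXA-AS3 (0% of all genes) and in siHOXB-AS3 (0.0614%). DESeq2 called 1 for siHOXB-AS3 against siNT (2.71% of all genes). The fit of those groups alone called 3 (23.3%), and that with the GC trend removed 2 (14.2%). Between the KDs 1 of 8 passed, beside 1.57% of all genes. There DESeq2 called 2 (6.14%), the fit with the GC trend removed 3 (26.7%) and the fit of the 4 KD libraries 0 (0.0156%). The EPCAM call was lost with only those 4 libraries in the fit (0.178), with the replicate block (0.135), with limma (0.0527), without siNT replicate 1 or 2 (0.184 and 0.190) and without siHOXB-AS3 replicate 1 or 2 (0.469 and 0.613). Their summed level was 4397 to 4737 FPKM in siNT, 3758 to 5619 in siHOXA-AS3 and 4166 to 4186 in siHOXB-AS3, and that of the 8 markers of other cell types was 10.3 to 11.1, 10.8 to 16.04 and 10.1 to 12.0. The part of these markers in the values of the Wnt target genes was not tested.

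Among 10959 other genes with a mean of at least 1 FPKM, those most like AXIN2 over the 6 libraries in log2 CPM (counts scaled for library size) were SHH (r = 0.9953), AFF1 (r = 0.9945) and VLDLR (r = 0.9939). SHH, the Sonic hedgehog ligand, was at 6.68 and 5.59 FPKM in siNT, 7.94 and 8.15 in siHOXA-AS3 and 4.04 and 3.58 in siHOXB-AS3. Of these genes 384 had an r of at least 0.9, and the points share groups and libraries, so the values are descriptions. Among the Wnt target genes r with AXIN2 was 0.964 for ZNRF3, 0.826 for RNF43, 0.794 for TCF7 and -0.756 for MYC.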

How the data were processed

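Human HT-29 cells were transfected with siRNA pools and RNA was profiled in 6 libraries made, per the labels, with the Lexogen SENSE mRNA kit. The authors deposited 1 RSEM gene table per library with expected counts, TPM and FPKM, on hg19 per the submitters' processing notes. No aligner, RSEM version or choice of strand is given by the sources used here, so reads of the antisense lncRNAs and of genes they overlap may not be fully separated. The dose and the RNA extraction differ between the labels and the study's methods, and the labels were followed.

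Row IDs were matched to symbols with a RefSeq table (GRCh38.p14, names only). For 167 rows no symbol was found, and these took 0.0433% of counts or less. The expected counts, deposited as estimates, were rounded and tested in edgeR 4.0.16 (R 4.3.3) by the quasi-likelihood test with robust dispersion, filterByExpr (minimum count 10) and TMM, over 6 libraries, with Benjamini-Hochberg adjustment over 13034 genes and a threshold of 0.05. Levels are the deposited FPKM values, and TPM served for the order of levels. DESeq2 1.42.0, limma 3.58.1 on log2(FPKM + 0.1), other scalings, the GC trend and each library left out were alternatives. The scripts were tested on simulated data. Nothing states that replicates came from separate cultures, so p-values measure the spread between these samples, which may be technical. Members and gene lists were chosen with earlier results of these data known. For the lists, the named genes are the 3 most abundant, those past the threshold and, for each comparison with siNT, the one with the lowest p, with TCF7L1, CDX2 and CD68 added after their values were seen.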

Additional observations from a re-analysis of the deposited data

How the results depend on the processing

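The direction and side of the threshold were the same in 256 of 315 values of single genes under the alternatives; 43 newly passed, 6 no longer passed and 10 changed sign. All 10 belonged to changes that passed nowhere in the fit of 6 libraries. TCF7 in siHOXA-AS3 against siNT was 0.012 with the GC trend removed, 0.011 with the replicate block as well, and -0.203 to 0.087 with 1 library left out. RNF43 there ran from -0.252 to 0.334 with 1 library left out, turning without siHOXA-AS3 replicate 1. SP5 there was -0.105 on log2(FPKM + 0.1), -0.005 with the GC trend removed and the replicate block, and -1.022 to 0.65 with 1 library left out. In siHOXB-AS3 against siHOXA-AS3, LGR5 ran from -0.109 to 0.654 and SP5 from -1.567 to 0.106 with 1 library left out, the turn coming without siHOXB-AS3 replicate 2 for LGR5 and without siHOXA-AS3 replicate 1 for SP5. The cause was not tested.

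Counts of calls moved with the setting. For siHOXA-AS3 against siNT, all genes called (0) became 49 with DESeq2, 24 with no filter, 1 with limma, 492 with the GC trend removed and 214 with the block as well, and 0 to 4031 with 1 library left out; the Wnt target genes called ran from 0 to 1. For siHOXB-AS3 against siNT, all genes called (8) became 331 with DESeq2, 265 with no filter, 2995 with only the groups compared, 0 with the replicate block, 1793 with the GC trend removed and 1219 with the block as well, and 0 to 3035 with 1 library left out. Its Wnt target genes called (0) became 2 with DESeq2, 1 with no filter and 4 with only the groups compared or with the GC trend removed, with or without the block, and 0 to 4 with 1 library left out. Between the KDs, all genes called (204) became 770 with DESeq2, 706 with no filter, 2 with only the groups compared, 10 with the replicate block, 93 with limma, 3373 with the GC trend removed and 2754 with the block as well, and 0 to 5027 with 1 library left out. Its Wnt target genes called (1) became 2 with DESeq2 or no filter, 0 with only the groups compared or with the replicate block, 5 with the GC trend removed, with or without the block, and 0 to 6 with 1 library left out. The median of the Wnt target genes between the KDs ran from -0.805 to -0.343 with 1 library left out. A library left alone in its group was assumed to vary like the others.

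The replicate numbers were shared by the groups, but nothing says what they mark. The correlation across genes of the difference between replicates was -0.347 for siNT and siHOXA-AS3, -0.139 for siNT and siHOXB-AS3 and 0.150 for the KDs. The differences also went with GC content, with r of 0.427 in siNT, -0.756 in siHOXA-AS3 and -0.149 in siHOXB-AS3. The correlations therefore cannot decide whether samples with the same number shared a culture or batch. The replicate block (0 Wnt target genes called in each comparison) is given as an alternative. TPM in place of FPKM left all 10 genes at their rank, and 8 of 10 kept it in siHOXA-AS3 replicate 1 alone, where SP5 and LGR5 changed places. Counts of 0 to 31 limit SP5, ASCL2, NKD1 and LEF1.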
